A study of Mus musculus with 75 samples.

Results

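Of 55291 genes in the count table, 9 were taken up here because they were read in most of the 42 induced cochlear cells and at 1 CPM (reads per 1000000 counted reads of the cell) in none of the 33 wild-type cells: Apoa4, Cd63, Crhr1, Gfra4, Gipc2, Mcam, Slc27a2, Syt13 and Thsd7b. The wild-type outer hair cells (WT_P30 OHCs, 17 cells) came from Slc26a5 CreER/+ mice with the Ai9/+ reporter, given tamoxifen at P20 and P21 and collected at P30. The wild-type supporting cells (WT_P60 SCs, 16 cells) came from Fgfr3-iCreER+ mice with the same reporter, given tamoxifen at P30 and P31 and collected at P60. The 42 induced cells were Tdtomato+ cells collected at P60 from Fgfr3-Atoh1-Ikzf2-DTR mice. These mice combine Fgfr3-iCreER+, which acts in SCs (mainly pillar and Deiters' cells), with the transgene CAG-LSL-Atoh1+, the Rosa26 CAG-LSL-Ikzf2/+ allele that also makes Tdtomato, and the diphtheria toxin receptor allele Slc26a5 DTR/+. They received tamoxifen at P30 and P31 and diphtheria toxin, which kills OHCs, at P36. Thus all 42 cells shared both induced factors, the toxin receptor allele and the toxin, and the wild-type mice carried none of these 3 alleles. After sequencing, the study sorted the 42 cells by Myo7a, a myosin of all hair cells, and Slc26a5, which encodes the OHC motor Prestin, into 3 types. These were the 15 SCs failing to become HCs, also called failing cells here, the 16 nascent HCs and the 11 OHC-like cells.

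Atoh1 is the basic helix-loop-helix factor that starts hair cell development, and it binds E-box sequences. Ikzf2 (Helios) is a zinc finger factor that promotes the OHC program over the inner hair cell program. In the adult mammalian cochlea SCs do not replace lost hair cells, which is why the pair of factors was turned on in them. The 9 genes act in varied processes. Gfra4 encodes a lipid-anchored co-receptor of the GDNF family whose ligand is persephin and whose signalling partner is the kinase Ret. Crhr1 encodes the main receptor of corticotropin-releasing hormone. Cd63 is a tetraspanin of late endosomes and exosomes, Mcam is an adhesion molecule of the immunoglobulin superfamily, and Thsd7b is a membrane protein with thrombospondin type 1 domains. Syt13 is an atypical synaptotagmin, and Gipc2 belongs to a family of PDZ adaptors that link cargo to myosin VI. Apoa4 is an apolipoprotein known from the intestine, and Slc27a2 activates and imports long and very long fatty acids.

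The 9 genes lie on 6 chromosomes, with positions from GENCODE M21 on GRCm38, the build of the counts. Slc27a2 (126552407 to 126588243), Gfra4 (131039632 to 131043088) and Syt13 (92915098 to 92956058) are on chromosome 2, and Apoa4 (46240696 to 46243459) and Mcam (44134469 to 44142727) on chromosome 9. Thsd7b is on chromosome 1 (129273302 to 130219278), Gipc2 on chromosome 3 (152093533 to 152166230), Cd63 on chromosome 10 (128900989 to 128912822) and Crhr1 on chromosome 11 (104132855 to 104175523). Exons of Apoa4, Gipc2, Mcam and Slc27a2 overlap genes on the opposite strand, and those of Gfra4 a microRNA gene on the same strand. The strand setting of the counting is not stated, so reads of these genes and of their overlapping partners cannot be told apart. No other gene overlaps the exons of Cd63, Crhr1, Syt13 and Thsd7b.

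Because Atoh1 binds E-boxes, the RefSeq promoters (GRCm38.p6, 250 bases before to 50 after a start) were searched for CAGCTG and for CAGATG, which reads CATCTG on the other strand, both also being forms of CANNTG. Promoters were matched for 7 of the 9 genes, not for Gipc2 and Syt13. CAGCTG was found for Thsd7b, Gfra4 and Apoa4, and CAGATG for Slc27a2 and Gfra4, while 16.3% and 17.15% of 32851 promoters hold these letters. CANNTG was found in 5 of the 7, and 72.3% of all promoters hold it. The stretches upstream of 3 of the genes are shown because these genes are read in most induced cells and have a match that starts before the annotated gene. Capitals mark the match, and each is 100 bases long, read 5′ to 3′ on the strand of the gene, with Thsd7b from chr1:129273203-129273302 (plus strand), Gfra4 from chr2:131043089-131043188 (minus strand) and Apoa4 from chr9:46240596-46240695 (plus strand).
Thsd7b: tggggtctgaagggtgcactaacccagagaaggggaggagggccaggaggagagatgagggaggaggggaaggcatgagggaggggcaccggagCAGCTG
Gfra4: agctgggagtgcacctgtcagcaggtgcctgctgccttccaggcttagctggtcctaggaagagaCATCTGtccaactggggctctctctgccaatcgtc
Apoa4: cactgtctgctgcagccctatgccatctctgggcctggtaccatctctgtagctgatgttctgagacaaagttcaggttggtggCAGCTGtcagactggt
The match starts 7 bases before the start site in Thsd7b, 35 before the first of 2 listed starts in Gfra4 and 164 before it in Apoa4. It is a match of letters and not a measured binding site, and these genes had r with Atoh1 of -0.02, 0.28 and -0.08 over the 42 cells (Pearson, a description).

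Every cell was picked by hand and amplified with a Smart-Seq kit without molecular identifiers, so a count is a read. Exact intervals of shares are binomial over cells, and intervals of fold changes rest on the spread between cells in the edgeR fit. Neither covers the spread between mice. The total per cell was 4821150 to 8355421 reads on genes in wild-type cells and 4264780 to 22934062 in induced cells. A count of 3 reads, taken as the floor of detection, was worth 0.359 to 0.622 CPM in a wild-type cell. Library numbers fell into 7 series, here called library runs. The wild-type OHCs filled one, the wild-type SCs another, and the induced cells 5 further runs (A to E), so for every difference from wild type the genotype, the toxin and the run cannot be told apart. Of the SCs failing to become HCs, 10 of 15 were in run C, where there was 1 nascent HC and no OHC-like cell. The number of mice behind the cells is not given, so the p-values measure the spread between cells. Markers were checked against the labels. The summed level of 5 OHC markers had a median of 33333 CPM in wild-type OHCs and 10.5 CPM in wild-type SCs, and 7 SC markers had a median of 6304 CPM in wild-type SCs and 0 in wild-type OHCs. OHC-like cells were far below wild-type OHCs in the OHC markers (median sum 451 CPM), also in Slc26a5 itself, with medians of 56.2 and 1855 CPM.

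The values that chose the 9 genes are given as a description. Cd63 was read at 1 CPM or more in 39 of the 42 induced cells (92.9%, exact 95% interval 80.5 to 98.5%), Slc27a2 in 37, Gfra4 in 36 and Syt13 in 35. Apoa4, Crhr1, Gipc2, Mcam and Thsd7b were each read in 34 (81.0%, exact interval 65.9 to 91.4%). In the 33 wild-type cells, 3 reads of 218255851 fell on the 9 genes, 2 on Cd63 in an OHC (0.353 CPM) and 1 on Slc27a2 in an SC (0.144 CPM), against 902592 reads in the induced cells. A count of 0 in 33 cells allows a share of up to 9.09% of cells at a floor of 3, and 10.6% as the exact 95% bound. After every cell was thinned to the smallest total of 4264780 reads, the same numbers of cells passed 1 CPM for each gene in each of the 5 groups.

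The 2 limits of the rule also admitted genes that were not listed. In all, 11 of 55291 genes (0.0199%) reached at least 34 induced cells and no wild-type cell at 1 CPM. The others were Mfng, a fringe glycosyltransferase that modifies Notch, in 36 induced cells, and the processed pseudogene Gm7993 in 38. Just outside the limit on induced cells were Rnf182 with 33 cells, Krt7 with 32 and Man1c1 with 31. On the wild-type side, Fabp5 and Ptpru in 36 induced cells and Rab3b in 35 were each read in 1 wild-type cell. Among the 3843 tested genes that reached 34 induced cells, 11 (0.286%) were read in no wild-type cell and 87.3% in 17 or more of the 33.

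**Figure D1:**
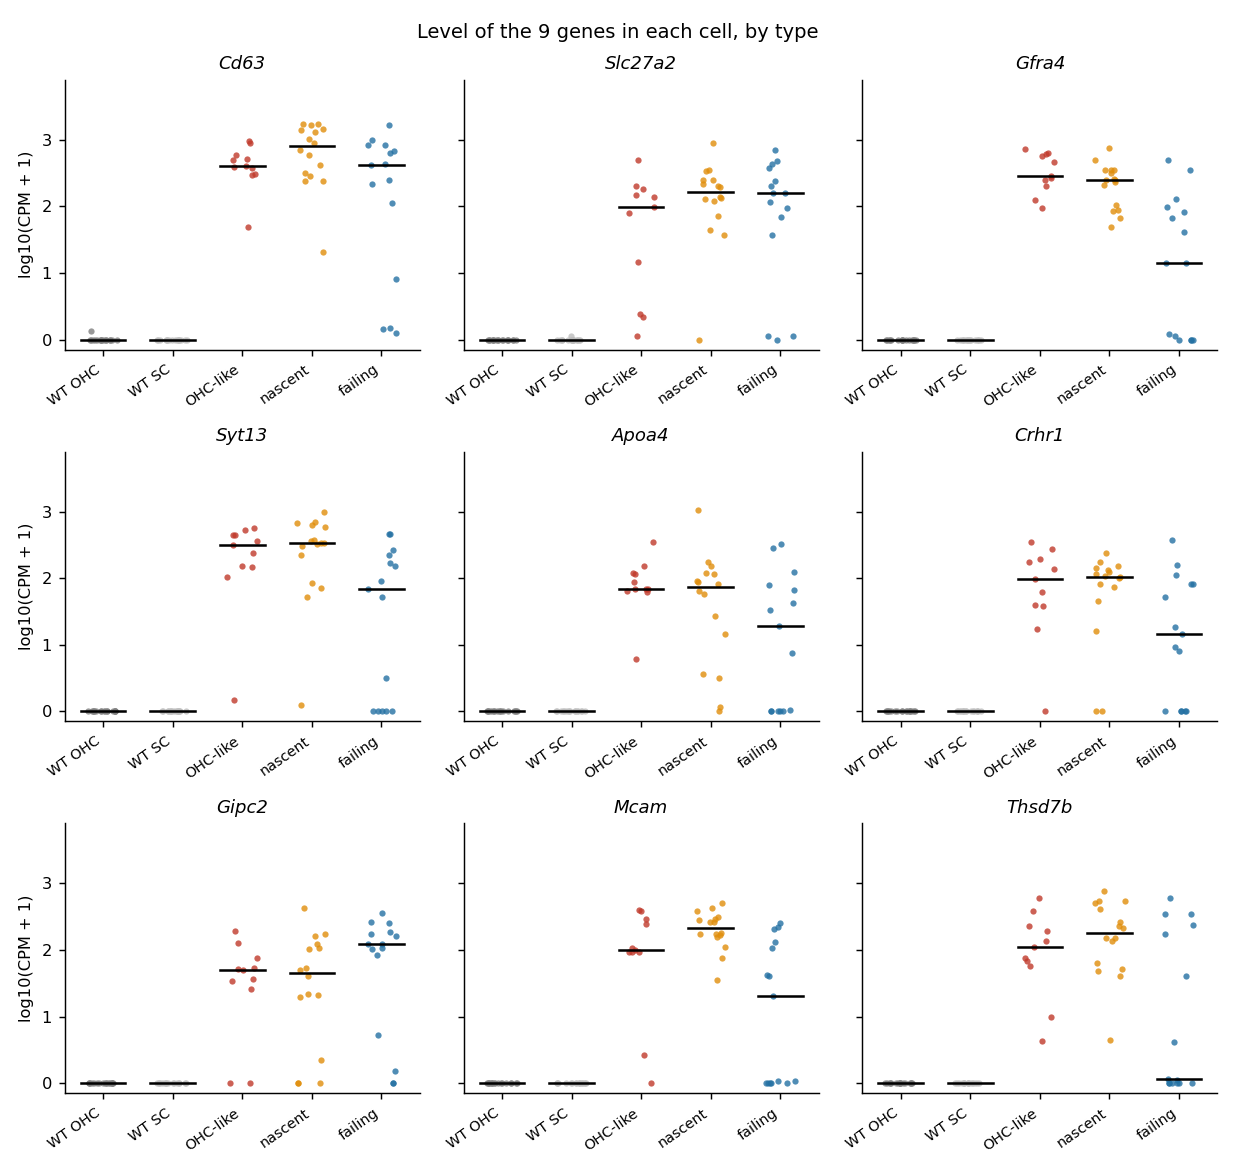
Level of each of the 9 genes in every cell as log10(CPM + 1), in the 17 wild-type (WT) OHCs, 16 wild-type SCs, 3 induced types (11 OHC-like, 16 nascent and 15 failing cells); points are cells and bars are medians. Wild-type cells lie at or next to 0, and the failing cells spread from 0 up into the range of the other types, with 7 of 15 at 1 CPM or more for Thsd7b.

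The receptor genes differed between each other in how many cells of each type held them. Gfra4 lay between 93.2 and 733 CPM in the 11 OHC-like cells (median 287), between 47.3 and 745 in the 16 nascent HCs (median 246) and between 0 and 491 in the 15 SCs failing to become HCs (median 13.0). All 27 cells of the first 2 types held it, against 9 of 15 failing cells, and the ranges overlapped. Crhr1 had a median of 95.4 CPM in OHC-like cells (0 to 351), 104 in nascent HCs (0 to 235) and 13.5 in failing cells (0 to 378), and was read in 10, 14 and 10 cells. Thus a cell without Crhr1 was found in every type.

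Thsd7b ran from 3.30 to 592 CPM in OHC-like cells (median 109), from 3.45 to 768 in nascent HCs (median 181) and from 0 to 593 in failing cells, where the median was 0.145. It was read in 27 of 27 cells of the first 2 types and in 7 of 15 failing cells, the widest gap among the 9 genes (53.3 percentage points). Where a failing cell did hold it, the level was not low: the median over those 7 cells was 238 CPM, against 150 over the 27 cells of the other 2 types. Mcam had medians of 101 CPM (0 to 401), 219.6 (34.7 to 501) and 19.7 (0 to 249) in the OHC-like, nascent and failing types. It was read in 10 of 11, 16 of 16 and 8 of 15 cells.

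Cd63 was the exception among the surface proteins, since failing cells held it at the level of OHC-like cells. Its CPM ran from 48.5 to 957 in OHC-like cells (median 399), from 19.3 to 1708 in nascent HCs (median 801) and from 0.273 to 1686 in failing cells (median 411). Only 3 failing cells were under 1 CPM. Failing cells 4, 9 and 14 had 2, 4 and 3 reads, around the floor of 3 reads and much like the 2 reads in a wild-type OHC. Reads on the pseudogene Cd63-ps were few, 0 to 17 in an induced cell, against up to 25608 reads on Cd63.

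The vesicle gene Syt13 and the adaptor gene Gipc2 had their highest medians in different types. Syt13 had medians of 316 CPM in OHC-like cells (0.470 to 569.8), 339.7 in nascent HCs (0.252 to 975) and 66.9 in failing cells (0 to 466). In contrast, Gipc2 had its highest median in failing cells, 121 CPM (0 to 359), with 48.5 in OHC-like cells (0 to 193) and 45.0 in nascent HCs (0 to 426). It was read in 12 of 15 failing cells (80.0%) and in 22 of the other 27 (81.5%), so its detection was near equal. With the library run as a covariate in edgeR, both genes had negative log2 fold changes against failing cells, -0.73 (SE 1.41) and -0.53 (SE 1.35) for Syt13 and -1.42 (SE 1.69) and -0.93 (SE 1.54) for Gipc2, in OHC-like cells and nascent HCs.

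Of the lipid genes, Apoa4 had medians of 68.1 CPM in OHC-like cells (5.21 to 345), 72.8 in nascent HCs (0 to 1047) and 18.1 in failing cells (0 to 327), and was read in 11, 14 and 9 cells. Slc27a2 reached 97.0 CPM in OHC-like cells (0.127 to 500.1), 165 in nascent HCs (0 to 889) and 155 in failing cells (0 to 699.6), all medians. It was read in 10, 15 and 12 cells, and the 3 ranges overlapped almost wholly.

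Per length, as TPM computed from the counts over the union of exons, the order of the medians over the 42 induced cells was Cd63 (282), Gfra4 (214), Syt13 (166), Mcam (84.6), Slc27a2 (82.0), Apoa4 (76.0), Crhr1 (72.4), Gipc2 (32.7) and Thsd7b (21.9). The SD over cells was 42.0 TPM for Thsd7b and 355 for Cd63, larger than the gap to the next gene at every step, so no neighbours in this order stood apart beyond the spread. Thsd7b, with 12171 exonic bases, was the longest of the 9. On the same scale the median of Atoh1, whose reads include the transgene, was 3814 TPM, and that of Ikzf2 was 70.6 TPM. The lengths used, 2121 and 11613 bases, are those of the annotated genes and not of the inserted constructs. These 2 TPM values are therefore not comparable with each other, and in CPM the medians were 3789 and 367.

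The rule took genes read in most induced cells, so a typical induced cell had to hold most of the 9 genes. How they spread over cells and types is given as a description, and 4 failing cells held 4 or fewer. An OHC-like cell had 7 to 9 of them (median 9, all 9 in 7 of 11 cells), a nascent HC 5 to 9 (median 9, all 9 in 11 of 16 cells) and a failing cell 2 to 9 (median 6, all 9 in 2 of 15 cells). The ranges of the 3 types overlapped. The summed level of the 9 genes was 1227 to 2793 CPM in OHC-like cells, 1067 to 4873 in nascent HCs and 274 to 2510 in failing cells. Detection moved with library properties in the same cells: failing cells had 6928 ± 1229 genes detected (SD, n = 15), OHC-like cells 7955 ± 1646 (n = 11) and nascent HCs 8006 ± 664 (n = 16). Over the 42 cells the Pearson r of the 9 genes with the number of genes detected had a median of 0.240, near the 0.216 over 11431 genes. The part of this in the lower detection of failing cells was not tested. Thinning to equal depth left the medians of 9, 9 and 6 genes per cell as they were. It evens out the reads and not the number of genes detected, and cannot restore a gene without reads, so it does not decide this.

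**Figure D2:**
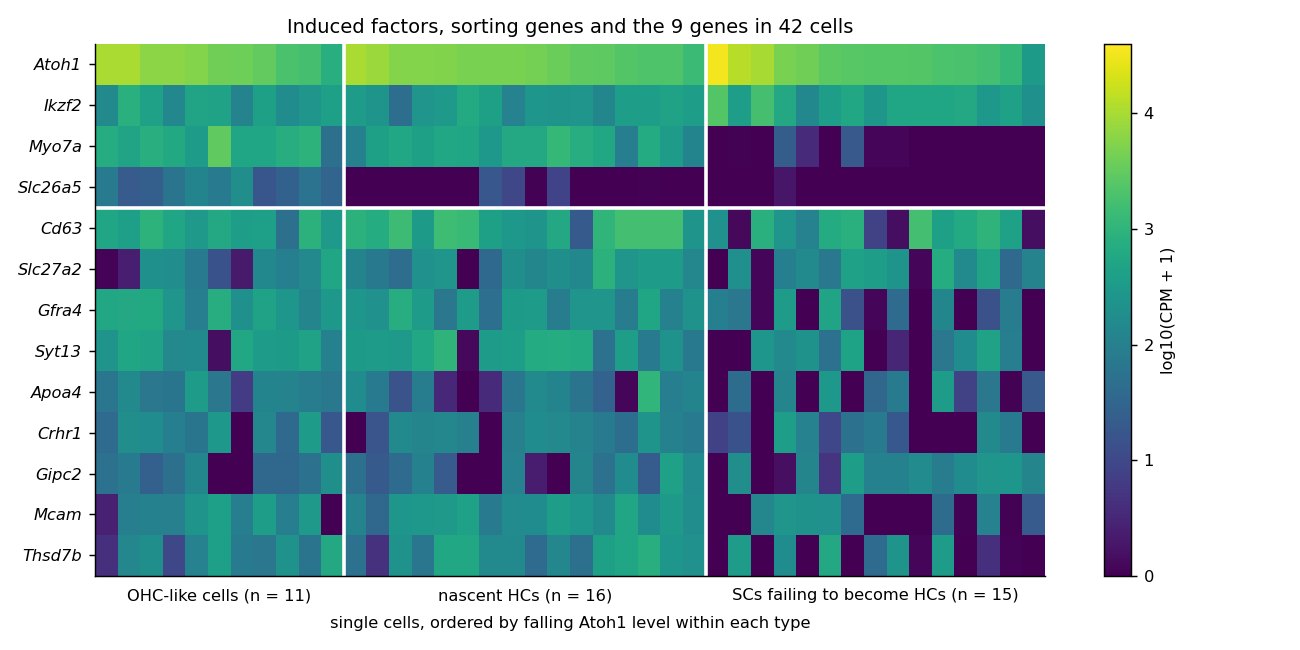
Heat map of log10(CPM + 1) for Atoh1, Ikzf2, Myo7a, Slc26a5 and the 9 genes (rows) in the 42 induced cells (columns), grouped by type and ordered by falling Atoh1 level within each type. Dark fields are at or near 0. In the rows of the 9 genes they are frequent in the 15 SCs failing to become HCs, which hold 2 to 9 of the genes, and rare in the other types. The row of Slc26a5 is also dark in most nascent HCs, of which 3 of 16 reached 1 CPM.

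Differences among the 3 induced types were tested, since the rule did not compare them. The limit of 34 induced cells still bounded them, because a gene with no read in the 15 failing cells could not reach it. The 9 genes and all genes tested are therefore unlike sets for the shares called against failing cells. edgeR's quasi-likelihood test was run on 11443 genes over all 75 cells, and a gene was called at an adjusted p under 0.001 with a log2 fold change beyond 2. In OHC-like against failing cells, 118 genes (1.03%) were called and none of the 9. Gfra4 had the smallest p, with a log2 fold change of 2.27 (SE 0.93, p = 0.0187, adjusted p = 0.22 by edgeR). It was also the only one of the 9 with an unadjusted p under 0.05, which 11.9% of all genes had. DESeq2 likewise called none of the 9 (3.43% of all genes) and gave Gfra4 alone of them an unadjusted p under 0.05 (14.4% of all genes). Of the 9 genes, 7 had a positive log2 fold change and 52.1% of all genes did, with a median of 0.83 over the 9 and 0.06 over all genes. Gipc2 and Slc27a2 had the negative values, -1.13 (SE 1.17) and -0.72 (SE 0.87).

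Nascent HCs against SCs failing to become HCs gave a like picture. edgeR called 154 genes (1.35%) and none of the 9, and none of the 9 had an unadjusted p under 0.05 in edgeR or in DESeq2, against 10.8% and 12.9% of all genes. DESeq2 called none of the 9 and 3.29% of all genes. The largest values were those of Mcam (log2 fold change 1.85, SE 0.99, adjusted p = 0.54), Gfra4 (1.65, SE 0.86, adjusted p = 0.52) and Syt13 (1.63, SE 0.91, adjusted p = 0.59), all by edgeR. The log2 fold change was positive for 8 of the 9 genes, with a median of 1.09, against 0.07 over all genes, of which 52.6% were positive. Intervals were wide, and the 95% interval of Mcam ran from -0.09 to 3.79.

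OHC-like cells and nascent HCs were separated in the study by Slc26a5, which 3 nascent HCs also held at 1 CPM or more (up to 16.4 CPM, above the lowest OHC-like cell at 16.0 CPM). None of the 9 genes was called between them. edgeR called 9 other genes (0.0787%), and none of the 9 studied here had an unadjusted p under 0.05 in edgeR, DESeq2 or limma-trend, against 3.98%, 4.92% and 5.14% of all genes. DESeq2 called 1.38% of all genes and limma-trend 0.00874%. Their log2 fold changes lay between -0.83 (Cd63, SE 0.69) and 0.62 (Gfra4, SE 0.90), and 2 of the 9 were positive, as were 49.1% of all genes. With 11 and 16 cells the intervals did not exclude a several-fold difference. The 95% interval of Thsd7b ran from -2.70 to 1.73.

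**Figure D3:**
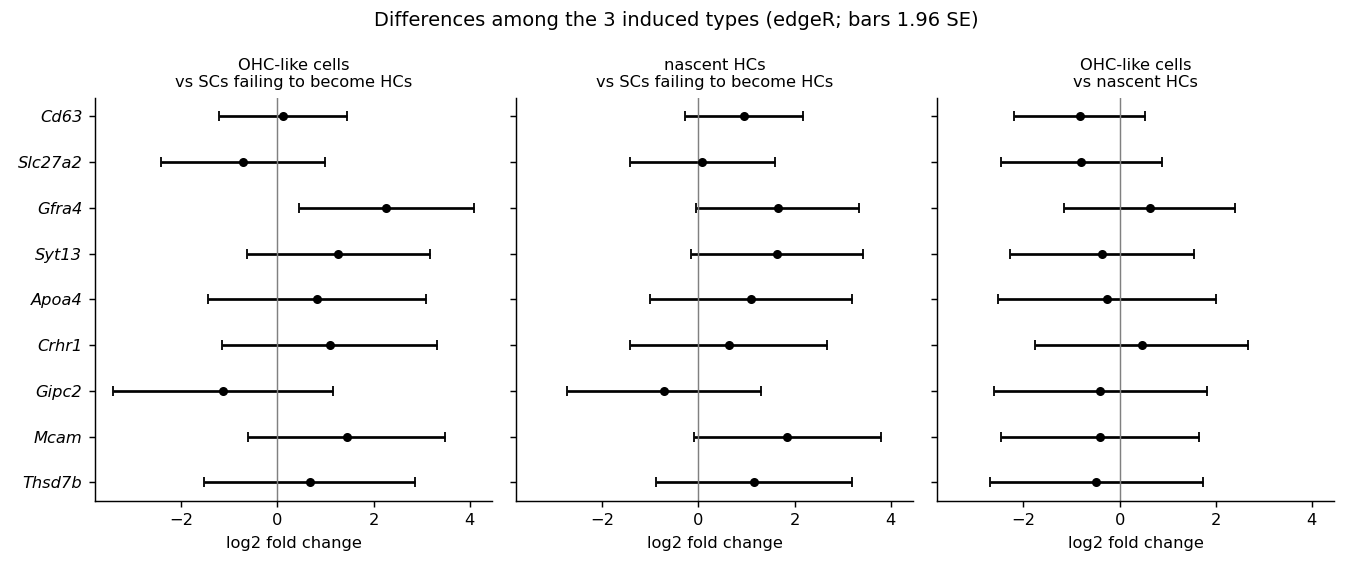
Log2 fold changes of the 9 genes (rows) in the 3 comparisons among induced types, by edgeR, with 95% intervals as bars. Only the bar of Gfra4 in OHC-like cells against SCs failing to become HCs lies clear of 0, from 0.44 to 4.10, and its adjusted p is 0.22. In the edgeR fit with the library run, not drawn, none of the 9 had an unadjusted p under 0.05 in this comparison.

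The test on a log scale, which weighs cells at 0 more heavily, gave another result. limma-trend on log2 CPM called Gfra4 between OHC-like and failing cells (log2 difference 5.37, SE 0.91, adjusted p = 8e-06 by limma), where it called 3.08% of all genes and 7 of the 9 had an unadjusted p under 0.05 (21.8% of all genes). Between nascent HCs and failing cells it called Gfra4 (4.70, SE 0.82, adjusted p = 1.8e-05), Mcam (5.15, SE 0.93, adjusted p = 3.1e-05) and Thsd7b (5.03, SE 0.95, adjusted p = 7e-05), and 2.66% of all genes, with 7 of the 9 at an unadjusted p under 0.05 (23.7%). These 3 genes had the widest gaps in detection. On this scale the median over all genes was shifted to 0.50 and 0.67, in the same direction. With the library run as a covariate in the 42 induced cells, limma-trend called none of the 9 in any comparison and 1 gene of 10045 (0.00996%) in each. The value of Thsd7b between nascent HCs and failing cells was then 7.96 (SE 1.89, adjusted p = 0.055 by limma), that of Gfra4 5.06 (SE 1.62, adjusted p = 0.24), and that of Mcam fell to 2.11 (SE 1.83, adjusted p = 0.79). At an unadjusted p under 0.05, this fit had Apoa4, Gfra4 and Thsd7b in both comparisons with failing cells, where such p-values were found for 7.65% and 8.8% of all genes, and none of the 9 between OHC-like cells and nascent HCs (4.1%).

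Gaps in detection were counted by cells and not tested. Apoa4, Gfra4, Mcam and Thsd7b were read in a share of OHC-like cells and nascent HCs at least 30 percentage points above that in failing cells. The same was so of 13.8% of the 11443 genes. Gfra4 and Thsd7b were read in all 27 cells of the first 2 types and in at most 9 of 15 failing cells, as were 0.385% of genes. The limit of 34 induced cells bounds these gaps in the 9 genes and not in all genes tested. These shares are therefore of unlike sets, and Thsd7b, read in 34 induced cells, lay at the limit. Failing cells were in runs A, C and E alone, each with cells of other types, while runs B and D held OHC-like cells and nascent HCs. In run A, the 4 failing cells held 2 to 9 of the 9 genes, the OHC-like cell 8 and the nascent HC all 9. In run C, the 10 failing cells held 3 to 9 (median 6) and the only nascent HC all 9. In run E, the failing cell held 7, the 2 OHC-like cells 7 and 9, and the 4 nascent HCs 5 to 9. For Thsd7b, 2 of 4 failing cells in run A, 5 of 10 in run C and 0 of 1 in run E had it, and every cell of the other types in these runs did.

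Atoh1, the factor induced in all 42 cells, was read at 322 CPM or more in each of them. Its median was 4045 CPM in OHC-like cells, 4524 in nascent HCs and 2456 in failing cells, and its highest value, 32483 CPM, was in a failing cell that held 3 of the 9 genes. Across the 42 cells the 9 genes had no common direction of relation to the level of Atoh1. The Pearson r of log2(CPM + 1) over 42 cells had a median of 0.04 over the 9 genes, and 5 of them were positive. Over all 11430 other genes tested the median was -0.01 and 48.9% were positive. Within types the median r over the 9 genes was 0.08 in OHC-like cells, -0.32 in nascent HCs and -0.08 in failing cells, with 6, 3 and 4 positive. The points share libraries and depth, and these values are a description.

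Slc27a2 and Gipc2 fell furthest below 0, with r of -0.45 and -0.42 over 42 cells. Without the 2 cells farthest from the median of Atoh1 they were at -0.40 and -0.34, and Slc27a2 stayed between -0.62 and -0.32 within each type. For Gipc2 the r within types was -0.60 to -0.12, and its Spearman rho in OHC-like cells was 0.0046. Gfra4 had the highest r, 0.28 over 42 cells, 0.16 without these 2 cells and 0.11 to 0.36 within types. Thsd7b was at -0.02 over all cells but at -0.55 in OHC-like cells and -0.53 in nascent HCs. Within library runs of at least 6 cells, the median r over the 9 genes was 0.30 in run A, -0.11 in run B, -0.22 in run C, 0.00 in run D and -0.44 in run E. All 9 were negative in run C, and 7 of 9 were positive in run A. The share of all genes with each sign was computed over the 42 cells only and not within types or runs. Slc27a2 was negative in each of the 5 runs, from -0.70 to -0.32, and Gipc2 in 4 of them, with an r of 0.47 in run D.

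**Figure D4:**
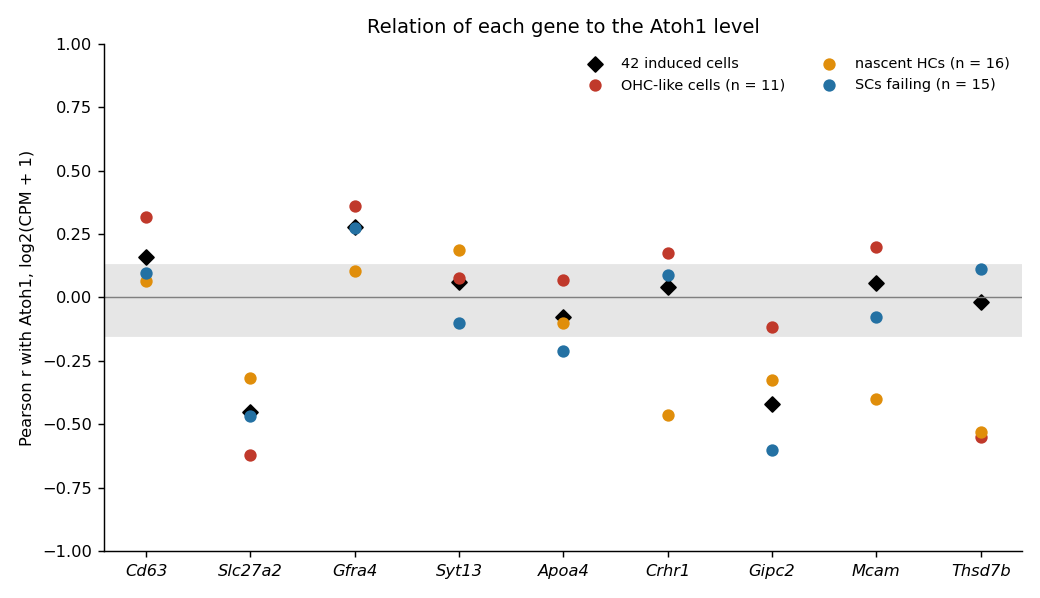
Pearson r of each of the 9 genes with Atoh1, on log2(CPM + 1), over the 42 induced cells (diamonds) and within each type (circles); the grey band spans the middle 50 percent of all other genes tested. Slc27a2 and Gipc2 lie below 0 in every set, at -0.45 and -0.42 over all cells, and Gfra4 lies highest at 0.28.

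Ikzf2, whose reads also include the transgene, had r with a median of -0.21 over the 9 genes, and 1 of 9 was positive. Over all genes tested the median was -0.10 and 32.2% were positive. Within OHC-like cells the sign was the opposite, with a median of 0.27 and 8 of 9 positive. The matching values over all genes within this type were not computed. With Myo7a, by which the cells were sorted, the median r was 0.48, against 0.08 over all genes, and 8 of the 9 were positive, as were 61.7% of all genes. Myo7a also set the failing cells apart from the other types, so this value is not independent of the difference in detection given above. Even so, 3 of the 15 failing cells held Myo7a at 1 CPM or more, up to 21.7 CPM.

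Among themselves the 9 genes formed 36 pairs, with a median r of 0.268 over the 42 cells (-0.281 to 0.651, 30 positive), against 0.050 over all pairs of tested genes. Of those pairs of all tested genes, 39469872 of 65328165 were positive. Gfra4 and Thsd7b were the most alike (r = 0.65, both read in 33 cells), followed by Mcam and Syt13 (0.52) and by Apoa4 and Gfra4 (0.52). Gipc2 and Mcam were the most unlike (-0.28). Within single types the median r of the 36 pairs was 0.043 in OHC-like cells, 0.075 in nascent HCs and 0.142 in failing cells, lower than over all 42 cells.

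The genes most like each of the 9 over the 42 cells showed where the pattern was shared. Gfra4 was most like Mfng (r = 0.79), one of the other 2 genes within the rule, and Lrrc10b (0.79), although within the 11 OHC-like cells Gfra4 and Mfng had an r of -0.39. Apoa4 was most like Apoc3 (0.86) and Ppp1r17 (0.75), both read in 2 wild-type cells. For the rest, the most alike genes were also common in wild-type cells in most cases, such as Carhsp1 for Gipc2 (r = 0.77, in 28 of 33 wild-type cells), Ubn1 for Mcam (0.73, 26 of 33) and Psmc3, a proteasome subunit, for Syt13 (0.71, 32 of 33). Slc27a2 was most like Btg2 (0.69), Crhr1 like Slc35e1 (0.71) and Cd63 like Emsy (0.60). These are descriptions over 42 cells that share runs and types.

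Apoa4 was the only one of the 9 whose closest gene was also its neighbour on the chromosome. Apoa1, Apoc3, Apoa4 and Apoa5 lie in this order on chromosome 9, with Apoc3 ending 5060 bases before Apoa4 begins. These neighbours were looked up after the values of Apoa4 were seen. Apoc3, an inhibitor of lipoprotein clearance, was read in 34 of 42 induced cells, in 32 of them together with Apoa4, and in 2 wild-type SCs (at most 32.9 CPM). It had medians of 916 CPM in OHC-like cells, 972 in nascent HCs and 27.7 in failing cells and a highest value of 53919 CPM, not scaled by gene length. Apoa1, the main protein of high-density lipoprotein, was read in 29 induced cells and no wild-type cell (r with Apoa4 0.70), and Apoa5 in 15 and no wild-type cell (r = 0.42). Zpr1, the next protein-coding gene after Apoa5, was read in 35 induced and 16 wild-type cells (r = 0.12). For the other 8 genes the highest r with a nearest protein-coding neighbour was 0.40, that of Dnajb4 with Gipc2. With the second neighbour on each side, as Apoa1 and Zpr1 are for Apoa4, the highest was 0.43, that of Slc35c1 with Syt13. Over the 18 nearest neighbours of all 9 genes, 5 were read in most of the induced cells.

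**Figure D5:**
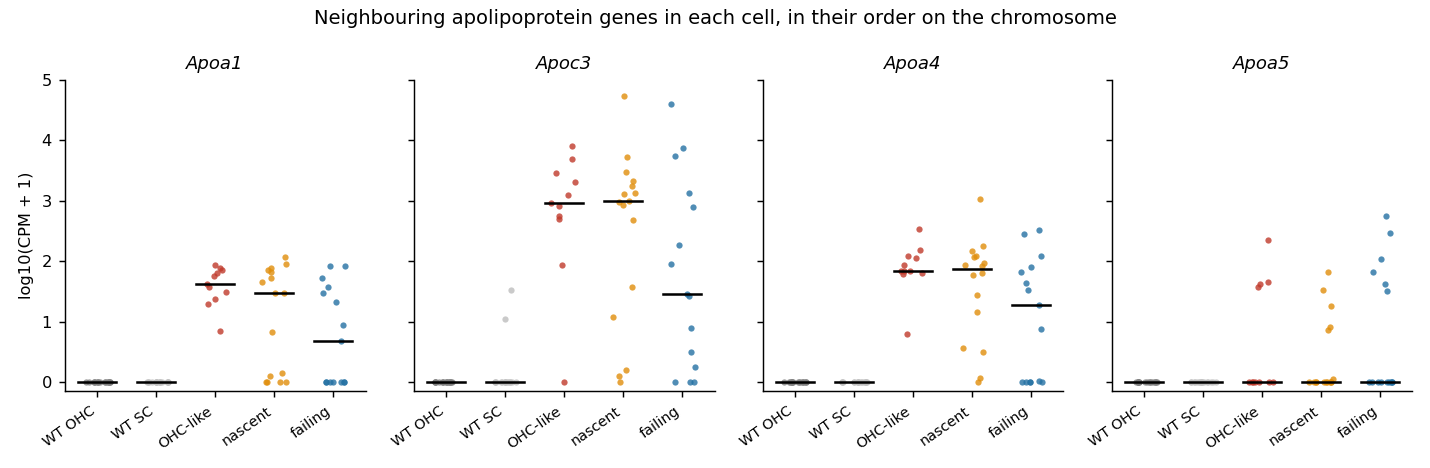
Level of Apoa1, Apoc3, Apoa4 and Apoa5 in every cell as log10(CPM + 1), in the order of the genes on chromosome 9, for the 17 wild-type OHCs, 16 wild-type SCs and 3 induced types; points are cells and bars are medians. All 4 lie at 0 in wild-type cells but for 2 SCs with Apoc3, and Apoc3 reaches 53919 CPM in an induced cell.

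Partner genes of the receptors were mostly not read. Ret, the kinase through which Gfra4 signals, had 0 reads in all 75 cells, and a count of 0 in 42 induced cells allows a share of up to 7.14%. Pspn, the gene of the Gfra4 ligand persephin, was read in 5 induced cells and 1 wild-type cell. Of the other 11 genes of the GDNF family list, 3 were tested and none was called in any of the 3 comparisons by edgeR. In each comparison 0 to 1 had an unadjusted p under 0.05, against 11.9%, 10.8% and 3.98% of all genes. For Crhr1, the ligand genes Crh, Ucn and Ucn2 had no read in any cell and Ucn3 had 1, in a wild-type cell. Crhr2, the second receptor, was read in 1 induced cell, and no gene of this list other than Crhr1 passed the filter on low counts.

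The adaptor family of Gipc2 held a called gene. Gipc3, known as a deafness gene of hair cells, was read in 10 of 11 OHC-like cells, 12 of 16 nascent HCs and 15 of 17 wild-type OHCs, with medians of 64.9, 29.7 and 46.5 CPM. No read of it was found in the 15 failing cells, and none of the 16 wild-type SCs reached 1 CPM. Against the floor of 3 reads over all failing cells, its level in reads pooled over cells exceeded that of failing cells at least 3606-fold in the OHC-like type (adjusted p = 9.9e-08 by edgeR) and at least 1653-fold in the nascent type (adjusted p = 5.41e-07 by edgeR). Gipc1 was read in 40 induced and 22 wild-type cells and was not called. Myo6, the myosin that GIPC proteins bind, was read in all 75 cells and not called, with medians of 859, 969 and 360 CPM in OHC-like cells, nascent HCs and failing cells. Thus within this family Gipc3 was read in wild-type OHCs, OHC-like cells and nascent HCs. Gipc2 was read in induced cells of all 3 types and in no wild-type cell.

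Genes of the compartment of Cd63 were common in wild-type cells. Of 10 late endosome and lysosome membrane genes, 7 were read in most of the wild-type cells, among them Lamp1 in 32 of 33 and Lamp2 in 29 of 33, and Lamp3 was read in none of the 75 cells. None of the 9 tested was called among the induced types. In OHC-like against failing cells 3 had an unadjusted p under 0.05, all lower, against 11.9% of all genes in either direction. In nascent HCs against failing cells 2 had such a p, both lower, against 10.8% of all genes. Among 26 other tetraspanins, 18 were tested and 1 was called, in both comparisons with failing cells, where 1.03% and 1.35% of all genes were called. Tspan2 was read in 7 of 11 OHC-like cells, 9 of 16 nascent HCs and 5 of 17 wild-type OHCs, and had no read in failing cells (adjusted p = 0.000748 and 0.000699 by edgeR in OHC-like cells and nascent HCs against failing cells, and 0.733 and 0.859 with the library run as a covariate). Another 4 tetraspanins, Cd53, Tspan5, Tspan7 and Tspan33, were read in 1, 15, 20 and 12 induced cells and in no wild-type cell. The share of all genes read in any induced cell and in no wild-type cell was not computed, so this count is not set against a background.

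Of 16 synaptotagmins other than Syt13, 5 were tested and none was called by edgeR. At an unadjusted p under 0.05, 3 were higher in OHC-like than in failing cells. In nascent HCs against failing cells 3 were higher and 1 lower, and 1 was higher in OHC-like cells than in nascent HCs. Of all genes, 11.9%, 10.8% and 3.98% had such a p in these 3 comparisons, in either direction. Syt11 was read in 23 induced and 4 wild-type cells, Syt7 in 21 and 4, and Syt10 in 4 induced cells and 13 wild-type SCs. The calcium sensor Syt1 was read in 1 induced cell and no wild-type cell. Apolipoproteins other than Apoa4 numbered 15, with 7 tested and none called, and the acyl-CoA synthetase and fatty acid transport list numbered 17 without Slc27a2, with 8 tested and none called. At an unadjusted p under 0.05, at most 1 gene of each of these lipid lists differed in any comparison. The same was so of the 13 other thrombospondin type 1 domain genes, of which 4 were tested and none was called. Thsd7a, the closest relative of Thsd7b, was read in 3 induced cells and 1 wild-type cell. Of the 18 adhesion molecules listed with Mcam, 8 were tested and none was called, with at most 2 at an unadjusted p under 0.05 in a comparison.

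Hair cell regulators downstream of Atoh1 were listed for comparison, 12 genes that were all tested. Here 7 of 12 had an unadjusted p under 0.05 and were higher in OHC-like cells than in failing cells, and likewise 7 of 12 in nascent HCs, where 11.9% and 10.8% of all genes had such a p in either direction, with median log2 fold changes of 3.38 and 3.62. Only Pou4f3 was called. It was read in 1 of 11 OHC-like cells, 2 of 16 nascent HCs and 0 of 15 failing cells, so the call rests on 3 cells. Pou4f3 was read in 17 of 17 wild-type OHCs. Its adjusted p in OHC-like against failing cells was 0.000697 by edgeR and 0.486 by limma-trend, so the call was lost on the log scale.

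Mcam is known from vessels and Apoa4 from the intestine, so markers of other cell types were read in the same cells. The 4 pericyte markers were under 1 CPM in all 42 cells, the highest summed level of 5 endothelial markers was 23.7 CPM, and macrophage markers reached 13.5 CPM. Of 5 intestine and liver genes, Alb and Fabp2 were under 1 CPM in all 42 cells, and Ttr (7.31 CPM) and Fabp1 (3.41 CPM) passed it in 1 induced cell each. The fifth, Apoa1, was read in 11 of 11 OHC-like cells, 10 of 16 nascent HCs and 8 of 15 failing cells, and the list's summed level had medians of 40.6, 28.6 and 3.82 CPM in these types and 0 in both wild-type groups. The 4 Schwann cell markers had median sums of 60.8, 30.3 and 0.129 CPM in the same order and medians of 0 in both wild-type groups. Of these 4, Mbp, a myelin protein gene, was read in 9, 11 and 2 cells and no wild-type cell, and the part of these lists in the results was not tested. Single cells held more of other lists, with up to 2340 CPM of hemoglobin genes in an OHC-like cell, 2002 CPM of fibroblast genes in a failing cell and 957 CPM of neuronal genes in a nascent HC.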

How the data were processed

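The authors checked reads with FastQC 0.11.9, trimmed them with trimmomatic 0.39, aligned them with Hisat2 2.1.0 to GRCm38 and deposited raw counts per gene made with HTSeq 0.10.0. The annotation release and strand setting are not given in the sources used here. A row of the vector element WPRE (0.0254% of counts) was left out. From the deposited counts, CPM of the total, TPM from exon lengths (GENCODE M21), detection at 1 CPM and counts thinned to 4264780 reads were computed (python 3.11.15, numpy 2.4.6, pandas 2.3.3). Groups and cell numbers came from the labels. The main test was edgeR 4.0.16 (quasi-likelihood, TMM, minimum count 10, all 5 groups), with Benjamini-Hochberg adjustment over 11443 genes. DESeq2 1.42.0, limma 3.58.1 (limma-trend, prior count 2) and other normalizations, filters, covariates and cell sets were alternatives. The limma fit with the library run was added after the data were seen. Scripts were tested on simulated data. The 9 genes, the gene lists and the tests were chosen with earlier results of these data known. Named genes are the 9 members, the called genes and partners of their lists, the 2 most alike genes of each and the genes next to the limits of the rule. A result for a gene among the most alike is not reported here. A library run is a series in the numbering of the libraries. Correlations are Pearson r of log2(CPM + 1).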

Additional observations from a re-analysis of the deposited data

How the results depend on the processing

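None of the 9 genes was called by edgeR or DESeq2 under any alternative at the main thresholds, and limma-trend called 1 between OHC-like and failing cells and 3 between nascent HCs and failing cells. The number of all genes called moved much more. In OHC-like against failing cells it was 118, and 7 with only the 2 groups, 77 with the genes detected as covariate, 8 with the library run, 0 with counts summed per type and run, 352 by limma-trend, 393 by DESeq2, 1 by limma-trend with the library run and 580 at an adjusted p under 0.05 with a log2 fold change beyond 1. In nascent HCs against failing cells it was 154, and 76 with only the 42 induced cells, 4, 11, 0, 304, 377, 1 and 548 with the 2 groups, the run, summed counts, limma-trend, DESeq2, limma-trend with the run and the looser thresholds. In OHC-like cells against nascent HCs it was 9, and 0 with the 42 cells, the 2 groups, the run or summed counts, 1 by both limma fits, 158 by DESeq2 and 105 at the looser thresholds. Without OHC-like cell 4 the counts were 114, 160 and 8. Fewer cells or samples enter the fits on 42 cells, on 2 groups and on sums, and for the other settings the cause was not tested. Genes higher and lower in nascent HCs than in failing cells numbered 108 and 46, and 73 and 3 with the 42 cells, 84 and 69 without the filter on low counts.

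Log2 fold changes of the 9 genes changed sign in 4, 6 and 12 of 135 alternatives per comparison, none of them with a call. In OHC-like against failing cells, Cd63 was at -0.0073 with library size only, -0.20 with the run and -0.73 with summed counts, and Syt13 at -0.73 with the run. In nascent HCs against failing cells, Slc27a2 was at -0.11 with DESeq2 size factors and by DESeq2, -0.23 with the genes detected, -0.0278 thinned and -0.33 summed, and Syt13 at -0.53 with the run. In OHC-like cells against nascent HCs, Apoa4 was at 0.64 with the run, 1.41 by limma-trend and 1.37 by limma-trend with the run, Crhr1 at -0.37 and Syt13 at 0.0162 summed, Gipc2 at 0.15 by limma-trend, and Mcam at 0.0681 and Thsd7b at 0.0258 with DESeq2 size factors and at 0.0676 and 0.0264 by DESeq2. Cells counted at another detection limit moved in 4 of 135 values, and r with Atoh1 in 28 of 108.

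The cell numbers in the labels did not pair cells: over 37 pairs of cells with the same number the correlation of deviations from group means was -0.14 to 0.17, and over 0.1 in 1. With the replicate block, edgeR called 139, 132 and 2 genes and none of the 9, and Apoa4 was at 0.27 and Gipc2 at 0.44 in OHC-like cells against nascent HCs.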
